A study of Mus musculus with 9 samples.

Results

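Kcng1, Niban1, Tspan8, Cdo1, Tpd52l1 and Pink1 are 6 genes that were lower in the stroma of invasive prostate cancer than in the stroma of prostate intraepithelial neoplasia (PIN) and that do not encode muscle proteins. They were named by gene symbol with their decreases on these same arrays already known, and make up 6 of 8106 genes tested. Each is represented by 1 spotted cDNA clone of its own among 17207 clones. A further clone is assigned to Tpd52l1 together with Supt4a and Supt4b, and was left out because its signal cannot be given to any of them. Since the contrast that chose the genes is the one described here, their differences are a description and carry no test. Tests are given only for other genes, mainly relatives, pathway partners and cell type markers. The lists of these were chosen with earlier results of these data known.

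The study asked how stromal gene expression differs between early lesions and invasive tumors. Stroma was cut by laser from frozen prostate sections of male FVB mice that carry the CR2-TAg transgene, in which regulatory elements of cryptidin-2 direct SV40 large T antigen to neuroendocrine cells of the prostate. The groups were 6 mice with invasive cancer at 24 weeks of age (invasive replicates 1 to 6) and 3 mice with PIN at 10 weeks (PIN replicates 2, 3 and 4), with 1 array for each mouse. Every mouse carried the transgene, normal prostate was not among the samples, and age and stage cannot be told apart because all invasive samples were older. On all 9 arrays the labels give Cy5 to the mouse and Cy3 to 1 pool made from 4 PIN mice, and each clone is given as log2 of mouse over pool, so 0 means the level of the pool. Because the pool holds RNA of the same PIN mice, their ratios can be pulled toward 0, and a dye effect on a clone would touch both groups alike. The values are ratios and give no absolute level, so genes are compared by their differences and not by abundance.

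The 6 genes belong to unrelated families. Kcng1 encodes a modifier subunit that forms no potassium channel alone and changes the gating of partner Kv2 subunits. Niban1 encodes a cytoplasmic protein induced by endoplasmic reticulum stress. Tspan8 encodes a tetraspanin, a membrane organizer found mainly on epithelial cells. Cdo1 encodes cysteine dioxygenase, which oxidizes cysteine on the route to taurine and sulfate. Tpd52l1 encodes a small coiled-coil protein of the tumor protein D52 family, and Pink1 a kinase that accumulates on damaged mitochondria and recruits the ubiquitin ligase Parkin.

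By their level on PIN replicates 2 and 3 the genes fell into 2 shapes, which the group means hide. Kcng1, Tpd52l1 and Pink1 lay near or above the pool on PIN replicates 2 and 3 and lower on all invasive arrays. Niban1, Tspan8 and Cdo1 were below the pool on PIN replicates 2 and 3, and stood above it only on PIN replicate 4. The pool also holds RNA of PIN replicate 4, so a high level in that mouse can lower the ratios on all other arrays. How far it did so was not tested. In all 6 genes every invasive array lay below every PIN array, which was the case in 2.97% of all genes tested, while the reverse order was found in 4.86% and a negative difference in 48%. As the genes were chosen on this contrast, nothing is read from that count.

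The log2 ratio of Kcng1 was -1.26, -3.21, -0.83, -2.67, -3.25 and -1.72 on invasive replicates 1 to 6, against 0.74, 0.54 and -0.70 on PIN replicates 2, 3 and 4. The invasive arrays spread over 2.43 log2 units, with replicates 1 and 3 least reduced, and the gap between the highest invasive and the lowest PIN array was 0.13. The mean was -2.16 ± 1.03 in invasive stroma (SD, n = 6) and 0.20 ± 0.78 in PIN stroma (SD, n = 3), a log2 difference of -2.35 (SE 0.54), or 5.12-fold lower. Every SE in the text is that of the limma fit, which assumes a common variance in both groups and moderates it across all genes. Such an SE can be smaller than the SDs of a single gene imply. PIN replicate 4 was the lowest PIN array, 1.34 below the mean of replicates 2 and 3 (PIN replicate 4 minus that mean, -1.34), a departure that 0.864% of genes matched in the same direction.

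Tpd52l1 had -0.92, -2.75, -1.06, -2.08, -2.14 and -1.65 on invasive replicates 1 to 6, against 0.48, 0.00 and 0.41 on PIN replicates 2, 3 and 4. Its PIN arrays lay close together, over 0.47 log2 units, and all were at or above the pool. The invasive arrays least reduced were again replicates 1 and 3, and the gap between the groups, 0.92, was the widest of the 6 genes. The mean was -1.77 ± 0.70 in invasive stroma (SD, n = 6) and 0.30 ± 0.26 in PIN stroma (SD, n = 3), a log2 difference of -2.06 (SE 0.36), or 4.18-fold lower. The clone assigned to 3 genes behaved otherwise, with -0.08 to 0.58 in invasive and -0.14 to 0.07 in PIN stroma.

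Pink1 had -0.64, -1.04, -0.91, -0.63, -0.75 and -1.60 on invasive replicates 1 to 6, against 0.02, -0.04 and -0.46 on PIN replicates 2, 3 and 4. It changed least, and invasive replicate 6 was the lowest array. The mean was -0.93 ± 0.37 in invasive stroma (SD, n = 6) and -0.16 ± 0.26 in PIN stroma (SD, n = 3), a log2 difference of -0.77 (SE 0.24), or 1.70-fold lower. The groups were separated by 0.17.

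Niban1 had -2.55, -2.50, -2.31, -1.86, -2.61 and -2.33 on invasive replicates 1 to 6, against -1.06, -0.68 and 0.59 on PIN replicates 2, 3 and 4. The invasive arrays lay within 0.75 log2 units of each other, the narrowest invasive range of the 6 genes. The mean was -2.36 ± 0.27 in invasive stroma (SD, n = 6) and -0.38 ± 0.86 in PIN stroma (SD, n = 3), a log2 difference of -1.98 (SE 0.32), or 3.94-fold lower. The groups were separated by 0.80.

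Tspan8 had -2.52, -2.49, -1.88, -2.54, -2.89 and -2.73 on invasive replicates 1 to 6, against -1.51, -1.58 and 1.20 on PIN replicates 2, 3 and 4. On PIN replicates 2 and 3 it was at 0.351 and 0.335 times the pool, and on PIN replicate 4 at 2.30 times the pool. The mean was -2.51 ± 0.35 in invasive stroma (SD, n = 6) and -0.63 ± 1.58 in PIN stroma (SD, n = 3), a log2 difference of -1.88 (SE 0.51), or 3.68-fold lower.

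Cdo1 had -2.38, -2.52, -2.96, -2.08, -2.38 and -2.27 on invasive replicates 1 to 6, against -2.01, -1.29 and 1.57 on PIN replicates 2, 3 and 4. PIN replicate 2 came within 0.06 of the highest invasive array, while PIN replicate 4 was at 2.96 times the pool. The PIN arrays spread over 3.58 log2 units, the widest range of the 6 genes in either group. The mean was -2.43 ± 0.30 in invasive stroma (SD, n = 6) and -0.58 ± 1.89 in PIN stroma (SD, n = 3), a log2 difference of -1.85 (SE 0.58), or 3.61-fold lower. For Tspan8 and Cdo1, whose PIN SDs were far above their invasive SDs, the SE of the fit understates the uncertainty.

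**Figure D1:**
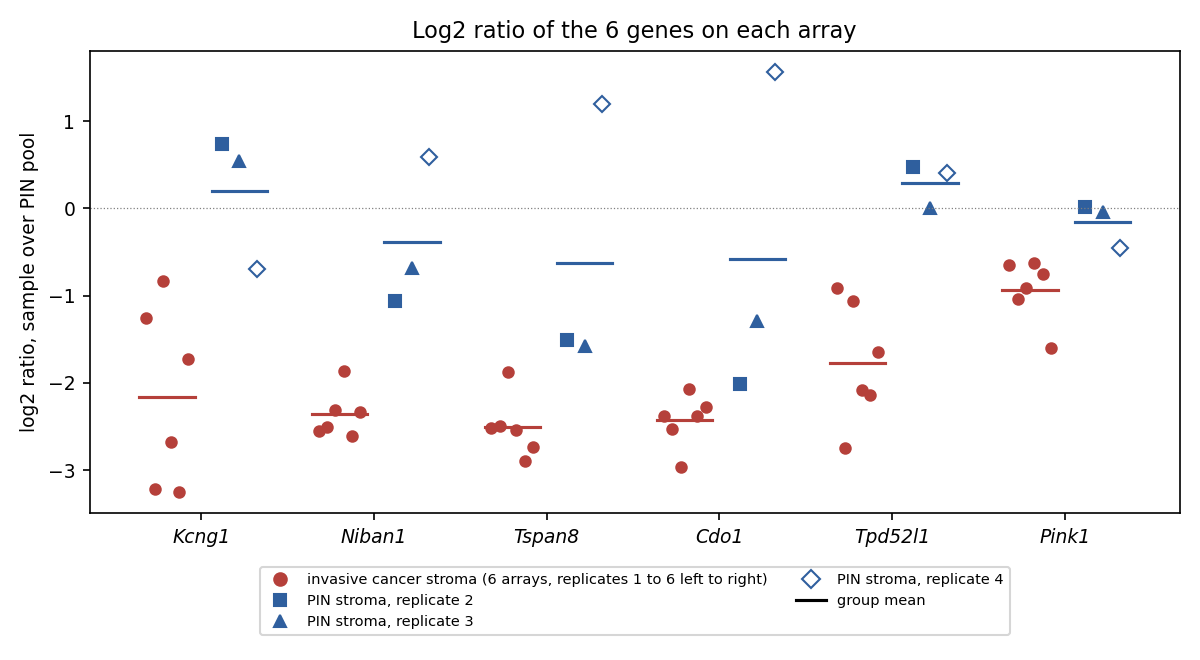
Log2 ratio of mouse over PIN pool (vertical axis) for the 6 genes, with circles for the 6 invasive arrays, filled squares, filled triangles and open diamonds for PIN replicates 2, 3 and 4, and bars for the group means. The open diamond stands far above the other PIN arrays in Tspan8 (1.20) and Cdo1 (1.57) and below them in Kcng1 (-0.70).

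PIN replicate 4 departed from the other PIN arrays in many genes. Over all clones its r with PIN replicates 2 and 3 was 0.176 and 0.189, against 0.672 between replicates 2 and 3. It was above the mean of these by 3.22 log2 units in Cdo1, 2.74 in Tspan8 and 1.45 in Niban1. Departures at least as large in that direction were found in 0.432%, 0.592% and 2.53% of 8103 genes. Without this array the log2 difference was -0.78 for Cdo1 (SE 0.27) and -0.97 for Tspan8 (SE 0.26), 0.422 and 0.514 times the difference on all 9 arrays. Niban1 kept -1.49, Tpd52l1 -2.01 and Pink1 -0.92, and Kcng1 reached -2.80. No other single array moved any of the 6 differences by more than 1.5 times. Weights estimated for each array moved Cdo1 to -1.07 (SE 0.43), 0.574 times its difference with equal weights.

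Correlations between the genes are given as a description over arrays that share a stage. Over 9 arrays Pearson's r was 0.920 for Niban1 with Tspan8, 0.917 for Tspan8 with Cdo1, 0.907 for Niban1 with Cdo1 and 0.928 for Kcng1 with Tpd52l1. Pink1 stood apart from both sets, with 0.693 for Tpd52l1, 0.637 for Kcng1, 0.603 for Niban1, 0.429 for Tspan8 and 0.354 for Cdo1. Across the 2 shapes r reached 0.791 for Niban1 with Tpd52l1 and 0.728 for Tspan8 with Tpd52l1. Over the 6 invasive arrays alone Kcng1 and Tpd52l1 had 0.932, and Pink1 had -0.135 with Kcng1 and 0.090 with Tpd52l1. Niban1 had 0.231 with Tspan8 and 0.350 with Cdo1 there, and Tspan8 and Cdo1 ran in opposite order (-0.780).

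**Figure D2:**
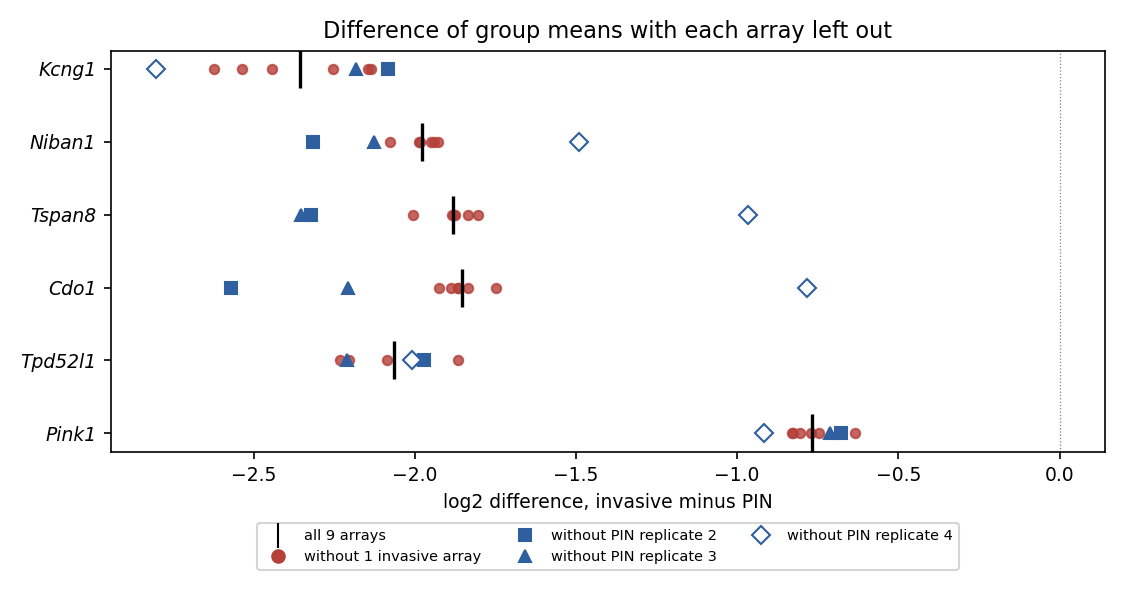
Log2 difference of invasive minus PIN means (horizontal axis) for each of the 6 genes with all 9 arrays (black bar) and with 1 array left out, red circles for an invasive array and blue symbols for PIN replicates 2, 3 and 4. Leaving out PIN replicate 4 (open diamonds) moves Cdo1 to -0.78 and Tspan8 to -0.97, while Tpd52l1 stays between -2.23 and -1.87.

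Set against all genes, 5 of the 6 were among the 20 most negative differences of 8106. Kcng1 ranked 5, Tpd52l1 10, Niban1 13, Tspan8 17 and Cdo1 20. Pink1 ranked 234, so on its clone it was a small decrease and not one of the largest. The study's quantitative RT-PCR, on stroma of mice not used for the arrays, gave Pink1 as 5-fold lower in invasive stroma. It also found Tpd52l1 lower. The 10 most negative differences were those of Crisp3, Fhod3, Myh11, Tpm2, Kcng1, Myl9, Sh3gl2, Grb14, Rspo3 and Tpd52l1. Myh11, Tpm2 and Myl9 are contractile genes of smooth muscle, while Crisp3 encodes a secreted cysteine-rich protein and its difference of -3.06 did not pass (adjusted p = 0.369 from limma). Crisp3 was at -7.43, -5.17 and 2.03 on PIN replicates 2, 3 and 4, against an invasive mean of -6.58. The secreted Wnt enhancer Rspo3 (-2.10), the adaptor Grb14 (-2.15) and the endophilin Sh3gl2 (-2.23) are also neither muscle genes nor among the 6, so the 6 do not exhaust the large decreases.

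The samples hold several cell types, and markers of some moved with the 2 shapes. Ratios to a pool have no zero, so whether a marker was present at all cannot be read from them. In such samples fewer cells of a type and less RNA per cell cannot be told apart. Of 31 listed epithelial genes of the prostate 8 were measured (Krt7, Krt18, Cdh1, Epcam, Cldn3, Cldn4, Cldn7 and Dsp), and all 8 were highest on PIN replicate 4 among the PIN arrays, as were 41.7% of all genes. Their median log2 ratio was -0.54, -0.81, -0.06, -0.74, -0.71 and -1.10 on invasive replicates 1 to 6, against -0.99, -0.87 and 0.64 on PIN replicates 2, 3 and 4. The epithelial median overlapped between the groups and, like Niban1, Tspan8 and Cdo1, was highest on PIN replicate 4. The part of epithelial RNA in these 3 genes was not tested. Krt7, a simple epithelial keratin, was the only marker of the 8 to pass, and it was higher in invasive stroma, by 1.12 log2 units (SE 0.34, with an adjusted p of 0.140 in limma).

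Smooth muscle markers moved with the other shape. Their median over 9 measured genes of 16 listed was -0.90, -3.33, -0.34, -1.60, -1.56 and -2.57 on invasive replicates 1 to 6, against 0.20, 0.31 and -0.58 on PIN replicates 2, 3 and 4. Like Kcng1 and Tpd52l1 it was least reduced on invasive replicates 1 and 3, and like Kcng1 it was lower on PIN replicate 4 than on the other PIN arrays. It parted from them on invasive replicate 6, where it was at -2.57 while Kcng1 and Tpd52l1 were at -1.72 and -1.65. Of the 9, 5 passed as lower, Myl9, Tpm1 and Myh11 with the smallest p, against 1.89% of all genes passing as lower. By the unequal-variance test and by the equal-variance test 0 of the 9 passed, with 4 and 5 at an unadjusted p under 0.05. The study's methods do not say which of these was used. The part of smooth muscle RNA in Kcng1, Tpd52l1 and Pink1 was not tested.

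Among the other marker lists, the background to read against was 3.75% of all genes passing as higher and 1.89% as lower. Macrophage markers passed as higher in 6 of 7 genes (Ms4a6d, Fcgr3 and Lyz2 with the smallest p), fibroblast markers in 6 of 14 (Col3a1, Col1a2 and Fn1), adipocyte markers in 3 of 12 (Fabp4, Lpl and Cd36), endothelial markers in 2 of 8 (Esam and Emcn) and neuroendocrine markers in 1 of 6 (Foxa2). Skeletal muscle markers passed as lower in 3 of 6 (Eno3, Pygm and Tnnt1). By the unequal-variance test the calls were 6 for macrophages, 2 for fibroblasts, 2 for adipocytes, 2 for endothelium and 2 for skeletal muscle. That test gave 0 for neuroendocrine markers, with 2 at an unadjusted p under 0.05. By the equal-variance test the calls fell to 2 for macrophages, 1 for adipocytes and 1 for endothelium. Fibroblast, neuroendocrine and skeletal muscle markers then had 0, with 7, 2 and 3 at an unadjusted p under 0.05. Cdo1 is also known from fat, and the adipocyte median ranged over 0.13 to 1.06 for invasive and -0.09 to 0.22 for PIN stroma. The part of fat in Cdo1 was not tested.

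**Figure D3:**
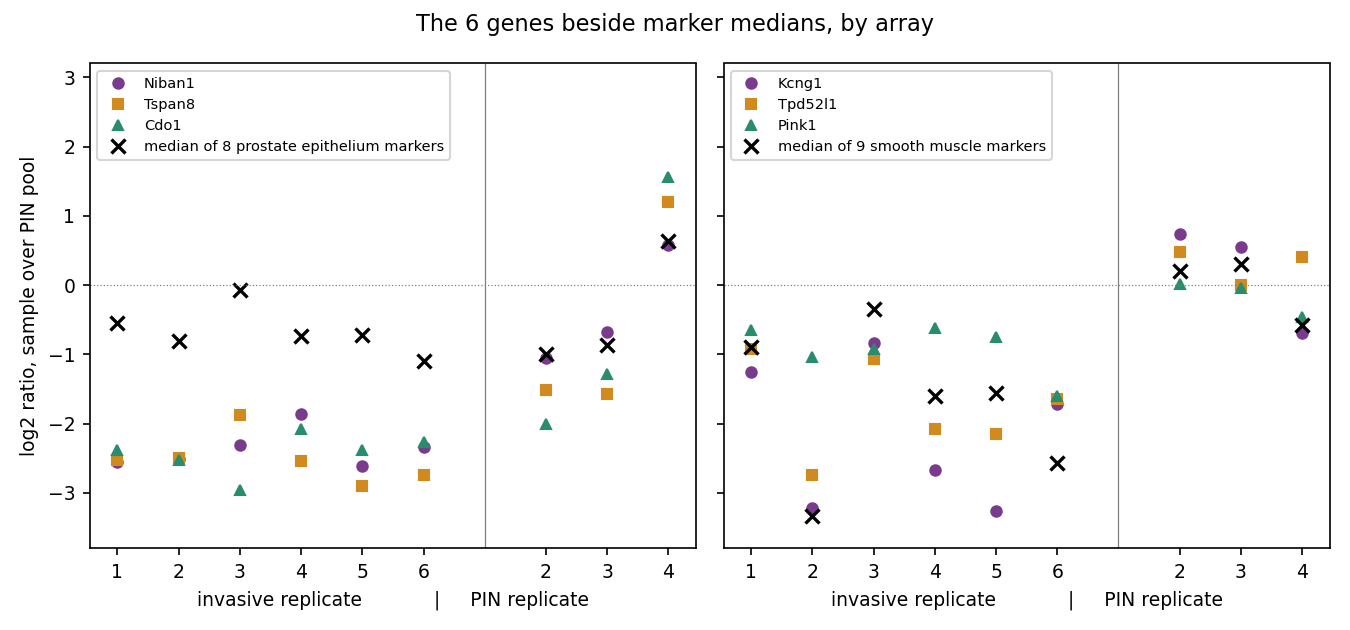
Log2 ratio of mouse over PIN pool (vertical axis) on each array, invasive replicates 1 to 6 and then PIN replicates 2, 3 and 4 (horizontal axis). The left panel shows Niban1, Tspan8 and Cdo1 beside the median of 8 epithelial markers (crosses), all high on PIN replicate 4, and the right panel shows Kcng1, Tpd52l1 and Pink1 beside the median of 9 smooth muscle markers (crosses), which was at -0.34 on invasive replicate 3 and -3.33 on invasive replicate 2.

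RefSeq promoter sequences were at hand for 4 of the 6 genes, and are shown because Niban1 and Tspan8 had 1 shape on the arrays and Tpd52l1 and Pink1 the other. Each line is the 250 bases before the transcript start of the RefSeq promoter table, 5′ to 3′ on the gene's strand, build GRCm38.p6. Capitals mark any match, on either strand, to 1 of 6 motifs. These were the TATA box spelled TATAAA, the box of nuclear factor Y spelled CCAAT, the GC box of Sp family factors spelled GGGCGG, the E-box of basic helix-loop-helix factors spelled CACGTG, a forkhead motif spelled TGTTTAC and the repeat unit of androgen response elements spelled AGAACA.
Niban1: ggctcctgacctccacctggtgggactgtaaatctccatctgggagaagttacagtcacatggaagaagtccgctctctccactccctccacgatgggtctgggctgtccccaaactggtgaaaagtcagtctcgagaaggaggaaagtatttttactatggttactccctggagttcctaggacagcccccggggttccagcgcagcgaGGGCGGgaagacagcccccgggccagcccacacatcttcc
Tspan8: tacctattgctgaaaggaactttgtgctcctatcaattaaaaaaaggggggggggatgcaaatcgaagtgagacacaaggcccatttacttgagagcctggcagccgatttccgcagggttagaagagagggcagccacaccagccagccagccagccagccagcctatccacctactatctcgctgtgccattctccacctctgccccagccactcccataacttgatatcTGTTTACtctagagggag
Tpd52l1: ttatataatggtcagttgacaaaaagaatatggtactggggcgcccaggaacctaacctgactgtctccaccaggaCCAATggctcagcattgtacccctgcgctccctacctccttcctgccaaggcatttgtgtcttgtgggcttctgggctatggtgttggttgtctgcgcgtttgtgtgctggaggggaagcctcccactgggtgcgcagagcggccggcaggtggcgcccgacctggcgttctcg
Pink1: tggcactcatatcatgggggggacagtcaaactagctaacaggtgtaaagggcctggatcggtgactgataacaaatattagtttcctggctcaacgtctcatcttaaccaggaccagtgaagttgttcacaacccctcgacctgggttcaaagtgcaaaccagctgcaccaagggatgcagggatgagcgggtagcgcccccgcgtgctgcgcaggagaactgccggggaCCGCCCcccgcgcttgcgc

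In GRCm38.p6 the genes themselves lie at chr2:168260117-168281533 (Kcng1), chr1:151571373-151721432 (Niban1), chr10:115816817-115849893 (Tspan8), chr18:46713193-46728502 (Cdo1), chr10:31332373-31445987 (Tpd52l1) and chr4:138313409-138326296 (Pink1), and all are protein coding. The windows lie at chr1:151571123-151571372 on the plus strand for Niban1, chr10:115817034-115817283 on the plus strand for Tspan8, chr10:31445959-31446208 on the minus strand for Tpd52l1 and chr4:138326297-138326546 on the minus strand for Pink1. The annotated Tspan8 gene begins upstream of its window, at position 115816817. The annotated Tpd52l1 gene, on the minus strand, begins at position 31445987, inside its window. In these 2 genes the window is therefore set by 1 of several possible starts. Niban1 and Tspan8 shared no match. Niban1 held 1 GC box, a motif found in 32.7% of 32851 promoter windows of this length, and Pink1 held 1 on the opposite strand. Tspan8 held 1 forkhead match, found in 3.17% of windows, and Tpd52l1 held 1 CCAAT box, found in 33.8%. None of the 4 windows held the TATA box (12.4% of windows), the E-box (6.02%) or the androgen repeat unit (16.1%). The GC content was 57.6% in Niban1, 52.4% in Tspan8, 58.0% in Tpd52l1 and 57.2% in Pink1, with a median of 52.4% over all windows. A match is a description of the letters and not of binding.

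Genes whose profile over the 9 arrays was most like each of the 6 are listed next (Pearson's r and Spearman's rank correlation over 9 arrays, the 3 highest r of 8087 genes with a value on every array). They were picked for likeness, and arrays of the same group share their stage, so no p is given. Kcng1 was closest to Axin2, a target and inhibitor of Wnt signaling (r = 0.984, rank correlation 0.967), to Myzap (r = 0.980, rank correlation 0.950) and to the noncoding RNA Oip5os1 (r = 0.971, rank correlation 0.933). Tpd52l1 was closest to D630045J12Rik (r = 0.980, rank correlation 0.933), to the receptor phosphatase Ptprf (r = 0.970, rank correlation 0.900) and likewise to Oip5os1 (r = 0.948, rank correlation 0.917). Pink1 was closest to Arhgef17 (r = 0.976, rank correlation 0.983), the respiratory complex I subunit Ndufa10 (r = 0.963, rank correlation 0.983) and 2210408F21Rik (r = 0.958, rank correlation 0.867).

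Niban1 was closest to Defb1, an antimicrobial peptide of epithelia (r = 0.962, rank correlation 0.667), to Ezr, which links actin to the membrane (r = 0.948, rank correlation 0.833), and to the sulfite oxidase gene Suox (r = 0.926, rank correlation 0.817). Tspan8 was closest to BC004004 (r = 0.989, rank correlation 0.983), Plet1 (r = 0.976, rank correlation 0.800) and the tryptophanyl-tRNA synthetase gene Wars (r = 0.967, rank correlation 0.800). Cdo1 was closest to Arfgap2 (r = 0.972, rank correlation 0.733), to the retinol saturase gene Retsat (r = 0.964, rank correlation 0.500) and to Fbxo36 (r = 0.961, rank correlation 0.433). For the last 2 the rank correlation was much the weaker, and r without PIN replicate 4 was 0.645 and 0.679. For the 3 genes nearest to Kcng1 r without that array was 0.977 to 0.983. Over the 6 invasive arrays alone Niban1 had r of 0.216 with Defb1, 0.069 with Ezr and -0.037 with Suox. There r was 0.352 to 0.523 for the genes nearest to Cdo1 and 0.757 to 0.891 for those nearest to Tspan8. It was 0.879 or more for those nearest to Kcng1, Tpd52l1 and Pink1.

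The relatives and partners give measurements that the choice of the 6 genes did not use. Their lists were still chosen with earlier results of these data known. Over 7 lists, 118 genes were tested and 5 passed at an adjusted p under 0.15 from limma, the false discovery rate of the study, 4 as higher and 1 as lower in invasive stroma. That is 4.24%, against 5.64% of all 8106 genes (3.75% higher and 1.89% lower). The median log2 difference of the 118 genes was -0.03, against 0.02 over all genes.

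The pathway of Cdo1 held the 1 gene that passed as lower. Cysteine dioxygenase makes cysteine sulfinate, which Csad decarboxylates toward taurine or which is broken down to sulfite, and Suox, the mitochondrial sulfite oxidase, turns sulfite into sulfate. Suox had -1.31, -2.14, -1.28, -1.91, -2.03 and -1.98 on invasive replicates 1 to 6, against -0.33, -0.45 and 0.80 on PIN replicates 2, 3 and 4. All invasive arrays lay below all PIN arrays, and PIN replicate 4 was again the highest. The mean was -1.77 ± 0.38 in invasive stroma (SD, n = 6) and 0.01 ± 0.69 in PIN stroma (SD, n = 3), 3.44-fold lower by the log2 difference of -1.78 (SE 0.31; limma, adjusted p = 0.0230). It passed without any 1 of the 9 arrays, with differences of -2.01 to -1.39. It did not pass by the unequal-variance test (adjusted p = 0.314) or the equal-variance test (0.173). Of the 20 genes of cysteine, taurine and methionine metabolism tested, Suox alone passed, and the median difference was 0.06. Csad, named here after its values were seen, was also lower on every invasive array, but its difference of -0.55 log2 units (SE 0.18; limma, adjusted p = 0.158) did not pass.

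Among 15 other tetraspanins, 2 passed, and both were higher, opposite to Tspan8. Tspan6 had 0.56, 2.26, 0.84, 1.94, 2.16 and 1.76 on invasive replicates 1 to 6, against 0.06, 0.24 and -0.52 on PIN replicates 2, 3 and 4. Its mean was 1.59 ± 0.72 in invasive stroma (SD, n = 6) and -0.07 ± 0.40 in PIN stroma (SD, n = 3), 3.16-fold higher by the log2 difference of 1.66 (SE 0.38; limma, adjusted p = 0.0585). Tspan14, which accompanies the protease ADAM10 on its way to the cell surface, differed by 0.91 log2 units (SE 0.22; limma, adjusted p = 0.0649). Without PIN replicate 2 neither passed (adjusted p = 0.200 for Tspan6 and 0.255 for Tspan14), nor without PIN replicate 3 (0.154 and 0.271). By the unequal-variance test Tspan6 passed (adjusted p = 0.147) and Tspan14 did not (0.328). By the equal-variance test neither passed (adjusted p = 0.222 and 0.177). The median of the 15 tetraspanins was 0.00.

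No voltage-gated potassium channel subunit passed among 9 tested beside Kcng1. Of the 9, 1 had an unadjusted p under 0.05 from limma, against 0 by the unequal-variance test and 0 by the equal-variance test. The smallest p-values were those of Kcnd3, which carries a transient outward current (log2 difference -1.16, SE 0.51, adjusted p = 0.308), and of the accessory subunit Kcne3 (1.41, SE 0.66, adjusted p = 0.341). The Kv2 partners of Kcng1 were not analysed here. Of 14 further genes, 13 of them potassium channel genes and the last Kctd12, which shares a tetramerization domain, Kcnk6 passed, a member of the two-pore family of background channels. It differed by 0.82 log2 units (SE 0.25; limma, adjusted p = 0.130), and no PIN array reached the lowest invasive array. The call was lost without any 1 of 6 arrays, which were invasive replicates 2, 4 and 5 and all 3 PIN replicates. It was also lost after scaling (adjusted p = 0.170 in limma) or quantile normalization (0.204), by the equal-variance test (0.249) and by the unequal-variance test (0.172).

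In the list of the Niban family and the integrated stress response none of 18 genes passed from limma. Of these, 4 had an unadjusted p under 0.05 in limma. The unequal-variance test likewise passed 0, with 1 at an unadjusted p under 0.05 (2 by the equal-variance test). The smallest p-values were those of the amino acid transporter subunit Slc3a2 (log2 difference 0.81, SE 0.28, adjusted p = 0.187) and of Ppp1r15b, which helps remove phosphate from the translation factor eIF2α (0.48, SE 0.18, adjusted p = 0.224). Niban2, the relative of Niban1 and named for that after the values were seen, differed by 0.94 log2 units (SE 0.38; limma, adjusted p = 0.255). The median of this list was highest on PIN replicate 4, at 0.66, against -0.32 and -0.21 on PIN replicates 2 and 3 and -0.14 to 0.19 on the invasive arrays.

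Of 5 genes of the D52 family and its binding partners none passed from limma. In limma 0 had an unadjusted p under 0.05, against 0 by the unequal-variance test and 1 by the equal-variance test. Tpd52, the founding gene of the family, differed by -0.55 log2 units (SE 0.31; limma, adjusted p = 0.445) and the membrane protein gene Plp2 -0.31 (SE 0.18, adjusted p = 0.456). Tpd52l2 had 0.03 and was also named after its values were seen.

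Among 37 genes of the PINK1 and Parkin pathway of mitophagy, by which damaged mitochondria are removed, 1 passed. Bnip3l, a mitophagy receptor that acts without Parkin, passed as 1.78-fold higher, by 0.83 log2 units (SE 0.26; limma, adjusted p = 0.148). Its 3 clones had differences of 0.60, 1.09 and 0.80, and the call was lost without any 1 of 7 arrays; it held without invasive replicate 3 or PIN replicate 4. It was also lost after median centring (adjusted p = 0.151 in limma), scaling (0.165) or quantile normalization (0.194) of the arrays, and with the median of the clones (0.175). Nor did the call hold by the equal-variance test (adjusted p = 0.280) or the unequal-variance test (0.514). The median difference of the 37 genes was -0.06, and their median ranged over -0.21 to 0.00 for invasive and -0.14 to 0.15 for PIN stroma.

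**Figure D4:**
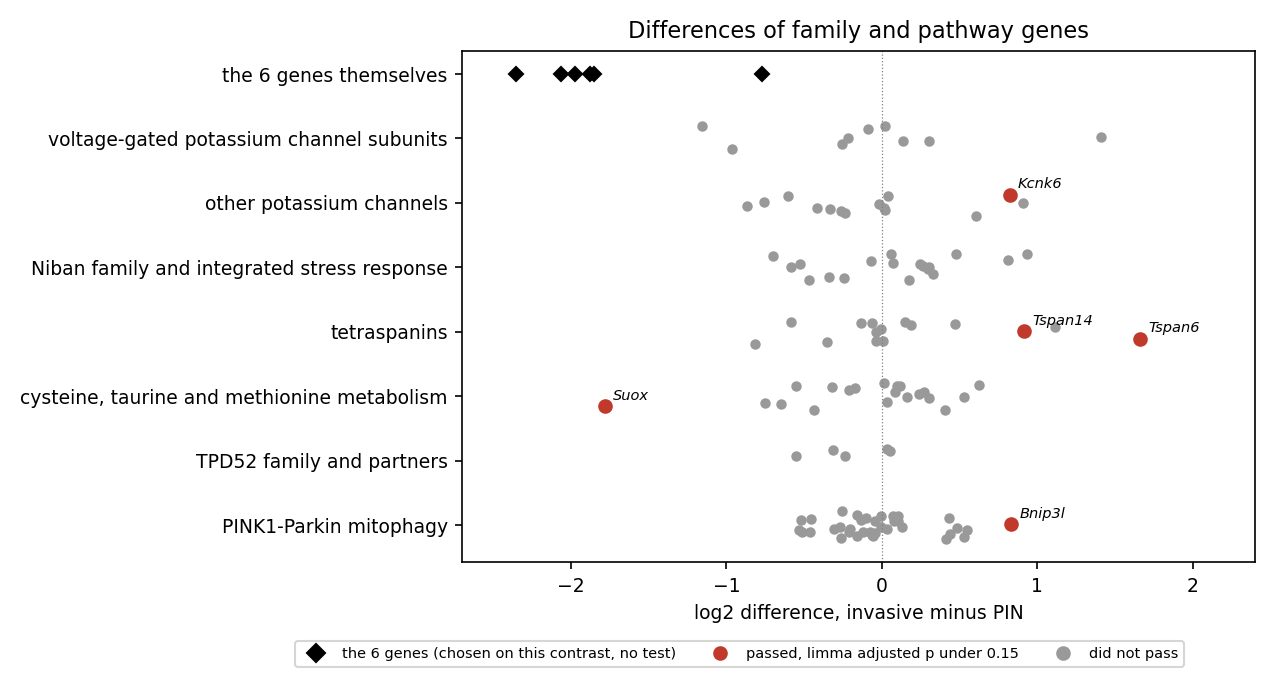
Log2 difference of invasive minus PIN means (horizontal axis) for the 6 genes (black diamonds) and for each tested gene of the 7 family and pathway lists, red where it passed from limma and grey where it did not. Most relatives lie close to 0, and Suox at -1.78 is the only 1 that passed on the side of the 6 genes.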

How the data were processed

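The authors amplified RNA of laser-dissected stroma linearly before labelling, hybridized it to spotted cDNA clones, read the spots with ScanAlyze, and applied lowess within print-tip groups to each array, with no background subtracted. The deposited values, log2 of mouse over PIN pool, were used as given; their direction follows the dyes given in the labels. Spot intensities were not used here, so clones near background were not filtered, and the number of arrays limits precision. Of the 4 PIN mice in the pool, 3 have arrays used here. Of 17664 rows, 457 held no value, and 12563 carried 1 gene symbol in the platform annotation. Where several clones carried a symbol, their mean was taken on each array. A gene entered the fit if measured in 4 or more invasive and 2 or more PIN samples. The fit (limma 3.58.1, R 4.3.3) took invasive minus PIN, with two-sided p-values adjusted by Benjamini-Hochberg over all genes, and an adjusted p under 0.15 counted as passing. The arrays are of separate mice. The fit was tested on simulated data.

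The 6 genes, the lists and the tests were chosen with earlier results of these data known. Named genes are the 6, the 3 most alike to each, genes of the family lists that passed (or the 2 with the smallest p), the 10 most negative differences, and up to 3 passing markers of each list; others are marked. Alternatives were other normalizations between arrays, filters, variance models, an unequal-variance t-test and an equal-variance one, the invasive arrays against 0, leaving out arrays, a replicate block, a threshold of 0.05 and other ways to combine clones. The study's methods name a standard t-test and do not say whether it assumed equal variances. Figures used Python 3.11.15 and matplotlib 3.10.9.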

Additional observations from a re-analysis of the deposited data

Results flagged for a closer look

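By Dixon's test within the 6 invasive arrays, run on 19 sets of values of which chance flags about 1 in 20, none of the 6 genes had an outlying array. The marker median of macrophages was low on invasive replicate 3 (0.61, gap over range 0.853), as was that of fibroblasts (0.26, gap over range 0.791), and the adipocyte median was high on invasive replicate 2 (1.06, gap over range 0.670). On invasive replicate 3 Kcng1 had its least reduced value and Cdo1 its lowest.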

How the results depend on the processing

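The direction of all 6 differences held under every alternative run. Leaving out 1 array at a time gave -2.80 to -2.08 for Kcng1, -2.31 to -1.49 for Niban1, -2.35 to -0.97 for Tspan8, -2.57 to -0.78 for Cdo1, -2.23 to -1.87 for Tpd52l1 and -0.92 to -0.63 for Pink1, and only Tspan8 and Cdo1 without PIN replicate 4 moved by more than the pooled SD. With array weights the difference was -1.07 for Cdo1 and -1.32 for Tspan8. Counts of passing features depended strongly on the setting. Genes passing (457) became 1685 with array weights, 2595 for the invasive arrays against 0, 751 for the clone with the smallest p, 207 by the unequal-variance t-test, 54 by the equal-variance test, 76 at an adjusted p under 0.05 and 37 to 896 with 1 array left out. Clones passing (371) became 2444, 4439, 66, 37 and 79 under the same settings without the clone choice, and 37 to 1179 with 1 array left out. Of the 5 family and pathway genes, the counts were 28 with array weights, 46 against 0, 9 for the clone with the smallest p, 3 after scaling or quantile normalization, 1 by the unequal-variance t-test or at an adjusted p under 0.05, 0 by the equal-variance test (15 at an unadjusted p under 0.05) and 1 to 16 with 1 array left out. The cause was not tested. The replicate number as a block gave 90 genes, 37 clones and 0 family genes (10 at an unadjusted p under 0.05). Same-numbered arrays are of different mice, and their deviations from the group means did not move together (r of -0.09, -0.10 and -0.02 for replicates 2, 3 and 4), so the number does not pair them.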
